A study of Mus musculus with 22 samples.

Results

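Cwc22 and the chromosome segment around it were described across all 22 chromatin immunoprecipitation (ChIP) and input libraries of whole mouse testis. The segment was defined as every 50 kb window that overlaps Cwc22 or lies within 500 kb of it on chromosome 2 of mouse build mm10. This gave 22 of the 54520 windows counted in each library, chr2:77350001-78450000. Cwc22 itself (gene ID 80744) lies at chr2:77881159-77946356 on the minus strand and overlaps 2 of the 22 windows. The gene was chosen by its H3.3 counts, which were about 5-fold higher in one cross, 3Rb, than in the other mice, so every H3.3 difference of 3Rb within the segment is a description without a test.

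The study compared testes of mice that carry Robertsonian translocations, fusions of 2 chromosomes at their centromeres. The γH2AX libraries came from mice of 4 weeks. In the 1Rb_M group (3 libraries) these were F1 mice of CBy.RBF-Rb(8.12)5Bnr/J crossed with B6.SPRET7MOLF12, heterozygous for 1 translocation. In the 1Rb_P group (3 libraries) they were F1 mice of C57BL/6J crossed with CBy.RBF-Rb(8.12)5Bnr/J, also heterozygous for 1. The 3Rb group (3 libraries) held F1 mice of B6.SPRET7MOLF12 crossed with RBF/Dnj, heterozygous for 3 translocations, and 1 further library came from C57BL/6J controls (B6). The H3.3 libraries came from mice of 6 weeks. They were 3 of B6.SPRET7MOLF12 controls without a translocation (Cg), 3 of carriers of 1 translocation with the strain label of 1Rb_M (1Rb), and 3 of 3Rb carriers. Input DNA, sequenced without an antibody step, was counted in 1 library each under the titles 1Rb_M, Cg and B6. The 1Rb_M and B6 inputs came from mice of 4 weeks and the Cg input from mice of 6 weeks. The input titled 1Rb_M is labelled with the parents of 1Rb_P, and a 3Rb input was not analysed here. Only 3Rb has an RBF/Dnj parent, so the strain of that parent and the number of translocations cannot be told apart in any comparison with 3Rb. The labels do not say whether libraries of a group came from separate animals, so every p-value measures only the spread between these libraries.

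Cwc22 encodes a protein of the spliceosome, the machine that removes introns from messenger RNA. It binds the helicase Eif4a3 and brings it to the spliceosome, where the exon junction complex is set down on the spliced transcript. In mice the gene lies in a segment, known as R2d, that is known to occur in different copy numbers in different strains. H3.3 is the histone H3 variant that is placed on chromatin outside DNA replication. γH2AX is the phosphorylated form of histone H2A.X that marks DNA breaks and, in male meiosis, the unsynapsed sex chromosomes.

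RefSeq lists 12 genes in the segment. The 3 protein-coding ones are Zfp385b (chr2:77410622-77817706), a zinc finger gene that spans 9 windows, Cwc22, and Gm14461 (chr2:78237547-78302230), which spans 3 windows. The others are 5 long non-coding RNA genes, 3 pseudogenes and 1 miscellaneous RNA gene. The start site of Cwc22 lies in the window chr2:77900001-77950000 and its 3′ end in chr2:77850001-77900000, the adjoining window. The promoter is shown because the window that holds it had the largest differences of the segment in both marks. It runs from 250 bases before to 50 bases after the start site (chr2:77946307-77946606, minus strand, RefSeq on GRCm38.p6), and capitals mark the only match, on either strand, to ACTACA followed by any 2 bases and TCCC, a motif bound by the zinc finger factor ZNF143.

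Cwc22 promoter: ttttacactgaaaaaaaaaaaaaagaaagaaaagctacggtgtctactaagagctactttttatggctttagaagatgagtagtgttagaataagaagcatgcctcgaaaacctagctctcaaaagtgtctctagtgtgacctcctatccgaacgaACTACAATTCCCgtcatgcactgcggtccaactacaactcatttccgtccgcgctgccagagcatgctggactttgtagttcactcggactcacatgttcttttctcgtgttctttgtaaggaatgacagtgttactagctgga

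The match begins 94 bases before the start site, and 595 of the 32851 promoters of this length (1.81%) hold the motif. The promoter holds 11 CpG dinucleotides, against a median of 7 over all promoters, and its GC content is 42%, against a median of 52.7%. Neither strand of it holds the TATA box TATAAA, found in 13.6% of promoters. It also lacks the GC box GGGCGG (35.7% of promoters) and the CCAAT box CCAAT (37.4%). The 50 kb windows do not resolve the promoter from the rest of the gene, so no value below refers to the promoter alone.

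H3.3 in 3Rb was raised over 4 neighbouring windows, chr2:77850001-78050000, and not over the 10 windows to their left or the 8 to their right. These 4 windows were taken as the block in what follows, as those at least 2-fold above both Cg and 1Rb in H3.3. They hold all of Cwc22, and upstream of its start site the pseudogene Gm13726 (chr2:77962220-77963083) and most of the long non-coding RNA gene Gm52519 (chr2:78047711-78051984). The block is 200 kb long as counted, and its ends are known only to the window.

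In the window of the Cwc22 start site the raw H3.3 counts of the 3 3Rb libraries were 7520, 7494 and 6603. In CPM, counts scaled to the size of the library with edgeR's factors for each mark, they were 109, 105 and 102 CPM in 3Rb. The same window had 20.5, 21.7 and 21.9 CPM in Cg, and 21.3, 20.8 and 20.3 CPM in 1Rb. All 3 3Rb libraries thus lay far above the other 6, which overlapped one another. The difference of 3Rb was 4.93-fold from Cg (log2 2.30, SE 0.059) and 5.06-fold from 1Rb (log2 2.34, SE 0.060).

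The 3′ window of Cwc22, chr2:77850001-77900000, had 56.8, 54.2 and 56.4 CPM of H3.3 in the 3Rb libraries. It had 15.7, 16.7 and 16.9 CPM in Cg and 16.1, 15.6 and 17.6 CPM in 1Rb. The difference of 3Rb in this window was 3.41-fold from Cg and 3.38-fold from 1Rb. Much of this window lies beyond the 3′ end of the gene, where RefSeq lists no gene in it.

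Upstream of the start site, the window of Gm13726 (chr2:77950001-78000000) had 46.5, 49.5 and 49.8 CPM of H3.3 in 3Rb. Cg had 12.5, 12.6 and 12.4 CPM there, and 1Rb had 13.5, 13.7 and 12.6 CPM. The difference of 3Rb was 3.89-fold from Cg and 3.67-fold from 1Rb, so a window without any part of Cwc22 was raised as well.

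The fourth window, chr2:78000001-78050000, had 33.3, 33.9 and 32.6 CPM of H3.3 in 3Rb, against 14.6, 14.7 and 14.0 CPM in Cg and 14.2, 15.5 and 14.2 CPM in 1Rb. The 3Rb libraries did not overlap the others. The difference was 2.30-fold from Cg and 2.28-fold from 1Rb, the smallest of the block. Just outside the 2-fold limit, the left neighbour chr2:77800001-77850000, which holds the start of Zfp385b, had a log2 difference of 0.0017 from Cg and -0.049 from 1Rb. The right neighbour chr2:78050001-78100000 had -0.035 from Cg and 0.030 from 1Rb.

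Over the other 18 windows, log2 H3.3 differences of 3Rb lay between -0.16 and 0.14 from Cg and between -0.095 and 0.15 from 1Rb, with medians of -0.00036 and 0.0098. Counting all 22 windows, the 3Rb libraries lay wholly above those of Cg in 7, where 13.4% of all 53117 windows tested did, and wholly above those of 1Rb in 6, where 10.1% did. The H3.3 contrasts chose the segment, and nothing is read from these shares. In 2 of the 3 windows of Gm14461 the 3Rb libraries lay just above all 6 others. The lowest 3Rb library had 13.0 CPM and the highest other library 12.8 CPM in the window starting at 78250001, and 12.5 and 12.4 CPM in the one starting at 78300001.

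**Figure D1:**
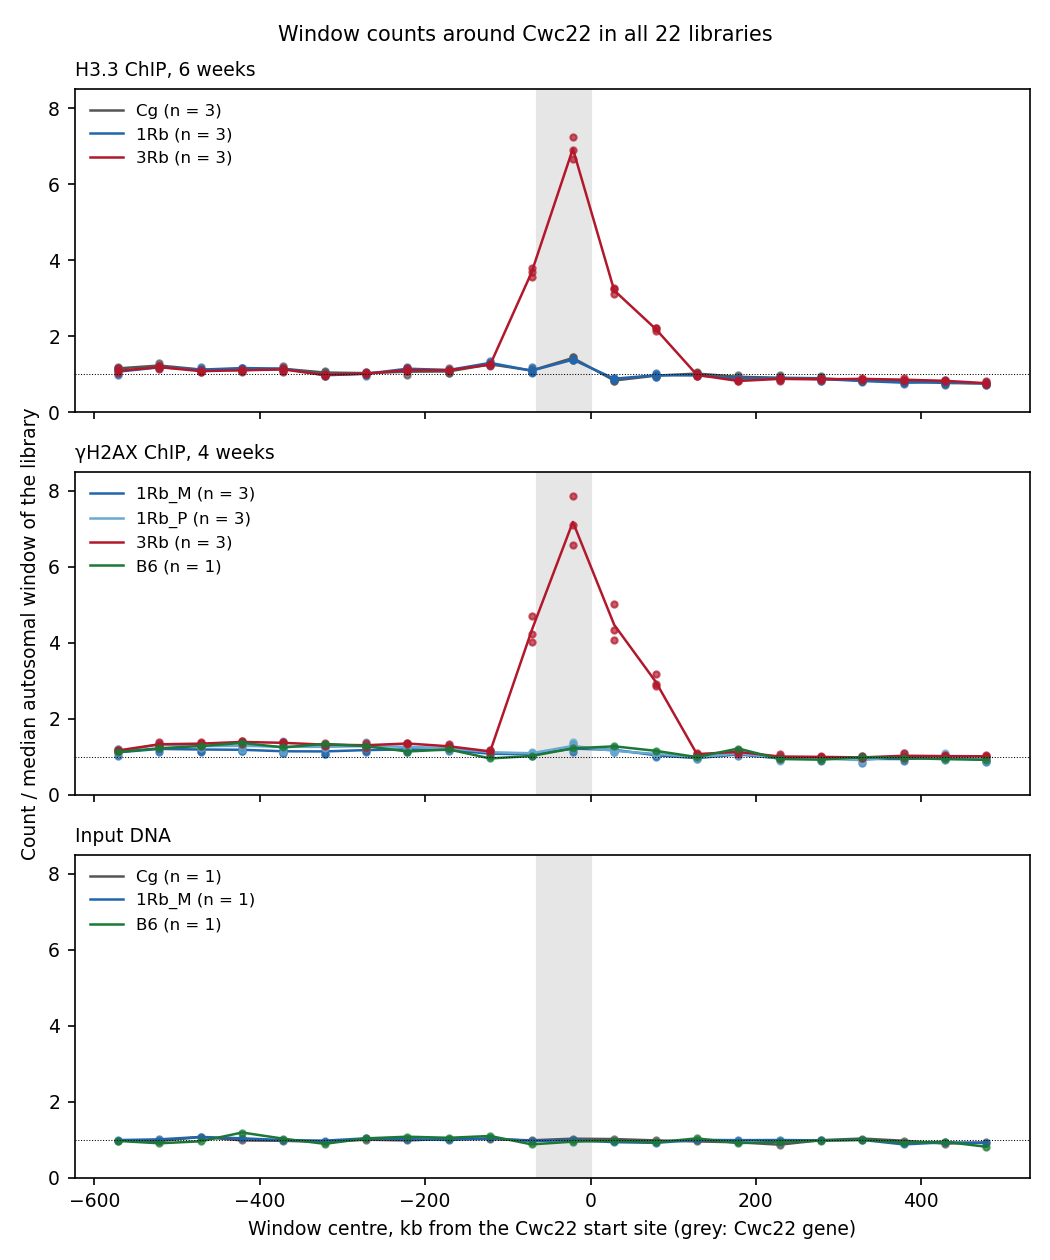
Counts in each 50 kb window divided by the median autosomal window of the same library, against the distance of the window centre from the Cwc22 start site in kb, for H3.3, γH2AX and input. Points are single libraries, lines are group means and the grey band is Cwc22. In both marks the 3Rb libraries rise over 4 windows, to 6.65 to 7.24 times the median window in H3.3 and 6.57 to 7.87 times in γH2AX, and the 3 inputs stay between 0.817 and 1.19.

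γH2AX, measured in other mice of another age and not used to choose the segment, was higher in 3Rb over the same 4 windows. In the window of the start site the 3Rb libraries had 92.3, 98.9 and 110 CPM. The 1Rb_M libraries had 15.9, 17.1 and 18.3 CPM and the 1Rb_P libraries 17.7, 16.7 and 19.3 CPM. The 3Rb libraries did not overlap the 6 others, and the 2 crosses with 1 translocation overlapped each other.

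The rise of γH2AX in that window was 5.86-fold over 1Rb_M (log2 2.55, SE 0.19, adjusted p = 3.8e-11) and 5.59-fold over 1Rb_P (log2 2.48, SE 0.19, adjusted p = 4.7e-11), by edgeR's quasi-likelihood test with Benjamini-Hochberg adjustment over all windows. In the 3′ window of Cwc22 the 3Rb libraries had 56.5, 58.8 and 65.6 CPM, against 14.7 to 15.7 CPM in 1Rb_M and 14.7 to 15.8 CPM in 1Rb_P. γH2AX rose there 4.01-fold over 1Rb_M (log2 2.01, SE 0.15, adjusted p = 1.8e-11) and 3.95-fold over 1Rb_P (log2 1.98, SE 0.15, adjusted p = 1.8e-11). Both windows of the gene were thus called higher against either cross.

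The window of Gm13726 had 57.1, 60.3 and 70.0 CPM of γH2AX in 3Rb, against 15.9 to 17.0 CPM in 1Rb_M and 15.8 to 16.7 CPM in 1Rb_P. The rise was 3.75-fold over 1Rb_M (log2 1.91, SE 0.16, edgeR adjusted p = 1.3e-10) and 3.87-fold over 1Rb_P (log2 1.95, SE 0.16, adjusted p = 6.4e-11). The fourth window had 40.1, 40.5 and 44.3 CPM in 3Rb, and 14.1 to 15.1 CPM over the 6 other libraries. It rose 2.84-fold over 1Rb_M (log2 1.51, SE 0.084, edgeR adjusted p = 3.6e-14) and 2.77-fold over 1Rb_P (log2 1.47, SE 0.085, adjusted p = 8.5e-14). In all 4 windows the third 3Rb library had the highest γH2AX of its group.

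Outside the block, γH2AX differed far less. Against 1Rb_M, 10 of the 22 windows were called higher and 0 lower, where 17.9% of all 53118 windows tested were called higher and 20.2% lower. These were the 4 block windows and 6 of the other 18, namely 5 windows within Zfp385b (77450001, 77500001, 77550001, 77600001 and 77700001 as window starts), with log2 differences of 0.17 to 0.25, and the right neighbour of the block, with a log2 difference of 0.14 (SE 0.055, edgeR adjusted p = 0.0419). The call of the right neighbour was lost with DESeq2 (adjusted p = 0.188) and with libraries scaled to their total counts (adjusted p = 0.679), and its adjusted p ranged from 0.0212 to 0.679 over 14 alternatives. The 5 other calls lie within 1 gene, in windows close to one another. Against 1Rb_P, 4 of the 22 windows were called higher, which were the 4 block windows, and 0 lower, where 10.1% of all windows were called higher and 12.8% lower.

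All 18 windows outside the block had a log2 γH2AX difference above 0 against both crosses, with medians of 0.12 against 1Rb_M and 0.069 against 1Rb_P. The median over all windows tested was 0.014 and 0.0026. With total-count scaling, 11 of the 18 were above 0 and 7 below against 1Rb_M, and 0 of the 18 were called. Under that scaling the calls over all windows against 1Rb_M went from 9507 higher and 10710 lower to 4492 higher and 16177 lower. The first and second 1Rb_M libraries also stood apart, with 12.3% of their counts on the X chromosome where the third had 18.9%. Without the first, 6 of the 22 windows were called against 1Rb_M, and without the third, 11 were. Shares over all windows are not given for these fits. The part of this difference between libraries in the calls outside the block was not tested.

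**Figure D2:**
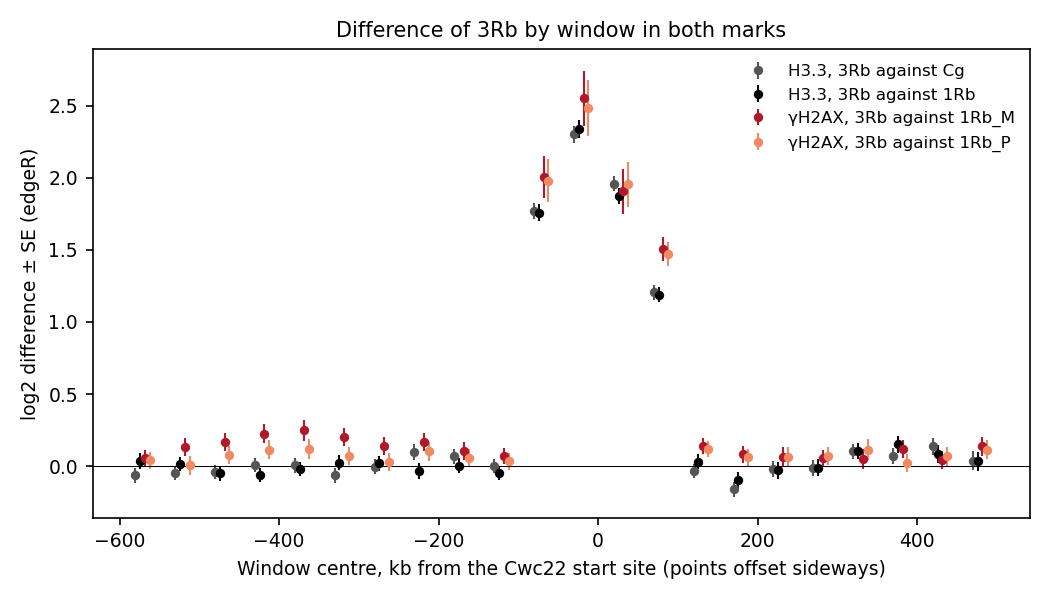
The log2 difference of 3Rb in each window, with the SE of the edgeR fit as bars, against the distance of the window centre from the Cwc22 start site in kb, for H3.3 against Cg and 1Rb and γH2AX against 1Rb_M and 1Rb_P. All 4 comparisons rise over the same 4 windows, from log2 1.19 to 2.55, and the other 18 windows lie between -0.16 and 0.25. Points of one window are set apart sideways for legibility.

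Summed over the 2 windows that overlap Cwc22, γH2AX was 149 to 175 CPM in the 3 3Rb libraries and 30.6 to 34.6 CPM in the 6 libraries of 1Rb_M and 1Rb_P. The means were 161 ± 13.5 CPM (SD, n = 3) and 32.7 ± 1.30 CPM (SD, n = 6), a 4.91-fold difference (two-sided exact permutation p = 0.0238, the smallest that 3 against 6 allows, and 0.0357 after adjustment over the 3 sums tested). The 20 windows that do not overlap the gene summed to 393 to 409 CPM in 3Rb and 300 to 322 CPM in the others, 1.30-fold higher, with the same exact permutation p of 0.0238. That sum includes the 2 raised windows upstream of Cwc22. Over the 18 windows outside the block alone, a set chosen after the values were seen, it was 294 to 303 CPM in 3Rb and 269 to 291 CPM in the others, 1.07-fold higher with an exact permutation p of 0.0238. This separation is given for edgeR's scaling only. The sum of the 18 was not tested with total-count scaling, where 7 of them lay below 0 against 1Rb_M.

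The 2 marks were then set side by side, using the log2 difference of 3Rb from 1Rb in H3.3 and from 1Rb_M, the same cross, in γH2AX. In the order of the chromosome, the 4 block windows rose 3.38, 5.06, 3.67 and 2.28-fold in H3.3 and 4.01, 5.86, 3.75 and 2.84-fold in γH2AX. Both marks thus had their largest difference in the window of the start site and their smallest in the fourth window. The γH2AX difference exceeded that of H3.3 by log2 0.25, 0.21, 0.031 and 0.32 in these windows (SE 0.16, 0.20, 0.17 and 0.099). In the other 18 windows the same excess lay between -0.058 and 0.29. No test was made of the excess, since it draws on the H3.3 values that chose the gene.

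Taking the mean count of the 4 block windows over that of the other 18 windows in the same library gave a ratio that does not depend on scaling between libraries. In H3.3 it was 4.12, 4.00 and 3.97 in the 3Rb libraries. It lay between 1.06 and 1.08 in Cg and between 1.07 and 1.10 in 1Rb. In γH2AX it was 3.75, 3.84 and 4.42 in 3Rb, between 1.03 and 1.07 in 1Rb_M, between 0.978 and 1.06 in 1Rb_P, and 1.05 in B6. The 6 3Rb libraries of both marks thus lay between 3.75 and 4.42, and the 13 other ChIP libraries between 0.978 and 1.10. The group means in 3Rb were 4.03 ± 0.078 (SD, n = 3) for H3.3 and 4.00 ± 0.37 (SD, n = 3) for γH2AX. These means differed by less than the spread between the γH2AX libraries. H3.3 in the same 3Rb libraries set the block, so the H3.3 ratio is a description, and the likeness of the means was not tested. Window by window, the γH2AX difference from 1Rb_M exceeded that of H3.3 throughout the block, by the amounts and SEs given above.

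**Figure D3:**
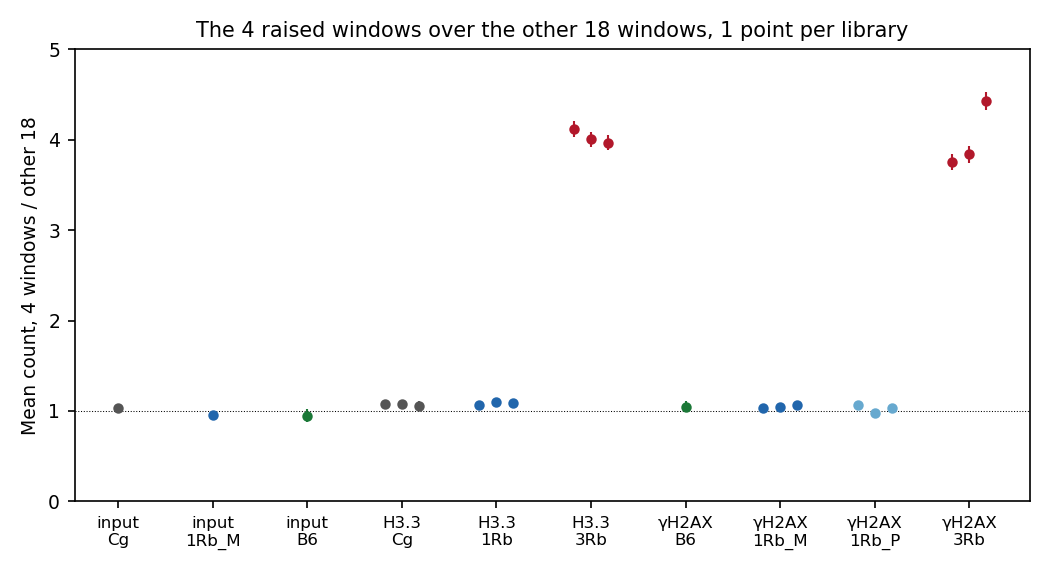
Mean count of the 4 raised windows divided by the mean count of the other 18 windows of the segment, with 1 point per library for all 22 libraries. Bars are exact 95% intervals for counting error only. The 6 3Rb libraries lie between 3.75 and 4.42 and the other 16 between 0.946 and 1.10.

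The 3 input libraries showed no such block. Divided by the median autosomal window of the library, the 22 windows lay between 0.879 and 1.08 in the 1Rb_M input, between 0.872 and 1.08 in the Cg input and between 0.817 and 1.19 in the B6 input. In the window of the start site the counts were 902, 804 and 198 in the 1Rb_M, Cg and B6 inputs, which is 0.991, 1.03 and 0.952 times the median window. The exact 95% Poisson intervals of these multiples were 0.928 to 1.06, 0.960 to 1.10 and 0.824 to 1.09, and all 3 held 1. In the 3′ window of Cwc22 the multiples were 0.969, 0.987 and 0.880, in the window of Gm13726 they were 0.938, 1.02 and 0.976, and in the fourth window 0.920, 0.985 and 0.933.

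Mean input counts of the block over the other 18 windows were 0.961 (95% interval 0.926 to 0.997) under 1Rb_M, 1.03 (0.992 to 1.07) under Cg and 0.946 (0.874 to 1.02) under B6. Between inputs, the block of the 1Rb_M input was 0.950 times that of Cg (0.905 to 0.997) and 1.02 times that of B6 (0.944 to 1.10), and Cg was 1.08 times B6 (0.994 to 1.16). Window by window, the interval of the ratio of 2 inputs held 1 in 20 of 22 windows for 1Rb_M over Cg, in 22 of 22 for 1Rb_M over B6, and in 21 of 22 for Cg over B6. These intervals cover counting error only, since each input is 1 library, and reads are not known to be independent molecules. The DNA of 3Rb testes itself was not counted without an antibody here, so more DNA copies of the block and more of either histone mark per copy cannot be told apart in 3Rb.

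Set over input, the window of the start site was the richest of the segment in H3.3 also in mice where the block was not raised. H3.3 there was 1.19-fold over the Cg input in Cg (log2 0.25 ± 0.045, SD, n = 3) and 1.19-fold over the 1Rb_M input in 1Rb (log2 0.25 ± 0.028, SD, n = 3). Here all counts were scaled to library totals, of which the X and Y chromosomes took more in γH2AX than in input. On that scale γH2AX in that window was at log2 0.029 ± 0.051 over input in 1Rb_M (SD, n = 3). It was at 0.0036 ± 0.10 in 1Rb_P over the 3 inputs pooled, and at -0.070 in the single B6 library over its own input. As multiples of the median autosomal window γH2AX stood at 1.22, 1.29 and 1.23 in 1Rb_M, 1Rb_P and B6. The 3 inputs stood at 0.952 to 1.03, so how far γH2AX lay above input depended on the scaling. Over the 3 inputs pooled, 3Rb stood at log2 2.59 ± 0.043 in H3.3 and 2.47 ± 0.11 in γH2AX (SD, n = 3 each). The window of Gm13726 had H3.3 below input in mice without the raised block, with log2 values of -0.52 in Cg and -0.32 in 1Rb. This was not particular to it, since the Gm14461 window starting at 78250001 had -0.54 in Cg and -0.51 in 1Rb. As a multiple of the median window, H3.3 in the Gm13726 window was 0.832 in Cg, where the Cg input had 1.02. In 1Rb it was 0.879, where the 1Rb_M input had 0.938.

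Between the groups without the raised block no window of the segment differed past the threshold. H3.3 of 1Rb against Cg was called in 0 of 22 windows by edgeR, where it called 3.71% of all windows in either direction. DESeq2 also called 0, where it called 0.922% of all windows higher and 1.75% lower. An unadjusted edgeR p under 0.05 was found in 1 window. The largest of these differences, in the Zfp385b window 77700001, was log2 0.13 (95% interval 0.018 to 0.24, edgeR adjusted p = 0.293). In the start-site window the log2 difference was -0.036, with an interval of -0.16 to 0.088. Summed over both windows of Cwc22, H3.3 was 37.3 ± 0.79 CPM in 1Rb and 37.8 ± 1.4 CPM in Cg (SD, n = 3 each, two-sided exact permutation p = 0.6, where the smallest possible is 0.1).

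γH2AX of 1Rb_M against 1Rb_P, the crosses that share the translocation but not all parents, was likewise called in 0 of 22 windows by edgeR. Over all windows edgeR called 1.36% in either direction. DESeq2 called 0 of the 22, where it called 0.0377% of all windows higher and 0.881% lower. In 1 window the unadjusted edgeR p was under 0.05. The start-site window differed by log2 -0.069 with an interval of -0.45 to 0.31. Without the third 1Rb_M library 3 of the 22 were called. The share of all windows called in that fit is not given here, so nothing is read from this count. The single B6 library, made with an antibody of another supplier, lay within the range of the 6 1Rb_M and 1Rb_P libraries in 16 of 22 windows as a multiple of the median window. It lay below that range in 2 windows and above it in 4. In the start-site window B6 stood at 1.23 and the 6 others at 1.12 to 1.38, where the lowest 3Rb library had 6.57.

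Along the rest of chromosome 2 no window outside the block reached a 2-fold rise of 3Rb over both Cg and 1Rb in H3.3. Of the 3574 windows tested on the chromosome, 4 (0.112%) were at least 2-fold above both Cg and 1Rb in 3Rb, and these were the 4 block windows. The 1st to 99th percentiles of the log2 H3.3 difference over the chromosome were -0.22 to 0.20 against Cg and -0.17 to 0.19 against 1Rb. Over all autosomes, 8 of 48017 windows (0.0167%) reached 2-fold, of which 3 lay on chromosome 6 and 1 on chromosome 13. Ranked by the smaller of the 2 differences, the block windows took places 3, 1, 2 and 6 among autosomal windows in the order of the chromosome. With the sex chromosomes counted, 107 of 53117 windows (0.201%) reached 2-fold and the start-site window ranked 19th. These H3.3 differences chose the gene and set the block, so the shares and ranks are a description without a test.

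γH2AX of 3Rb was at least 2-fold above both 1Rb_M and 1Rb_P in 5 of the 3574 windows of chromosome 2 (0.14%). The window that is not in the block, chr2:155000001-155050000, overlaps agouti (symbol a), which encodes a signalling protein of coat colour, and it is named because its values stood out. It had 68.2 to 76.5 CPM of γH2AX in 3Rb, 18.2 to 23.5 CPM in 1Rb_M and 13.6 to 14.2 CPM in 1Rb_P, a rise of 3.59-fold over 1Rb_M and 5.26-fold over 1Rb_P (edgeR adjusted p = 1.9e-09 and 1.3e-11). H3.3 in the same window was 38.8 to 42.7 CPM in 3Rb and 23.5 to 25.2 CPM in Cg, a difference of 1.67-fold. There the γH2AX difference exceeded that of H3.3, against the 1Rb_M cross, by log2 1.09, where at Cwc22 it exceeded it by 0.031 to 0.32.

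**Figure D4:**
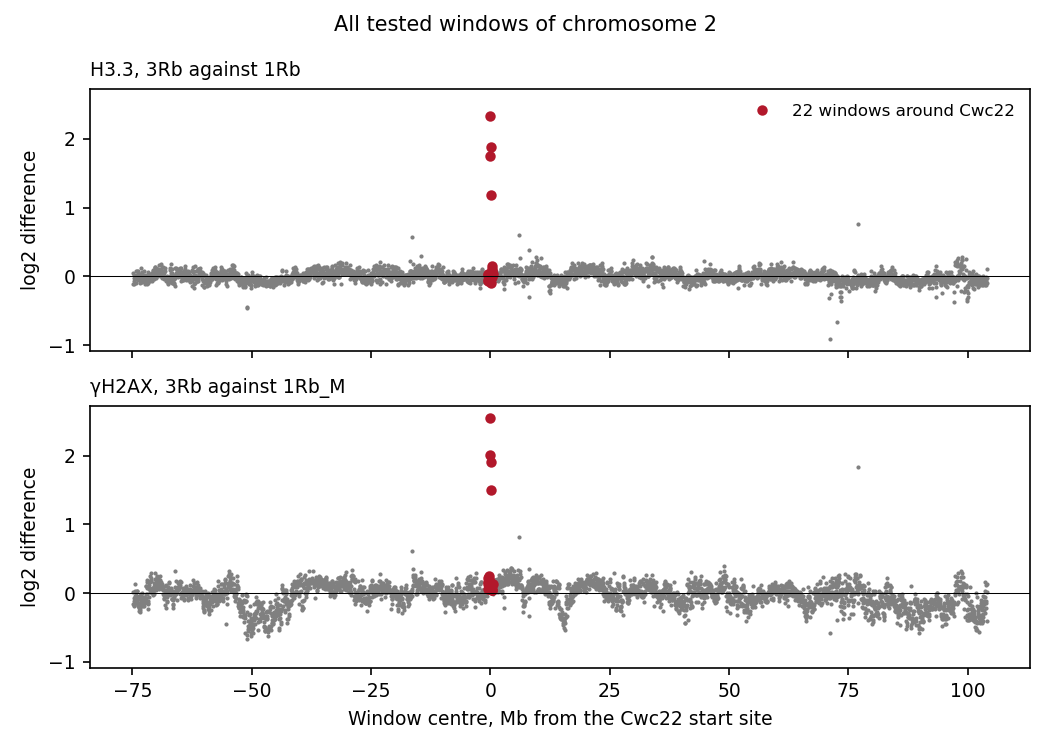
The log2 difference of 3Rb from 1Rb in H3.3 and from 1Rb_M in γH2AX for all tested windows of chromosome 2, against the distance of the window centre from the Cwc22 start site in Mb. Red points are the 22 windows around Cwc22. The 4 block windows reach log2 1.19 to 2.34 in H3.3 and 1.51 to 2.55 in γH2AX, and the 1 grey point above log2 1.5 in γH2AX is the agouti window.

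Outside the segment, the 5 windows whose pattern over the 18 replicated ChIP libraries was most like that of the start-site window were all on the Y chromosome. Likeness was the root mean square difference of log2 CPM after centring each mark, over windows with a protein-coding gene, taking 1 window from any run less than 1 Mb apart. The nearest were those of Gm20918 (0.18) and Gm20834 (0.19), followed by Gm21244 (0.37), Gm20795 (0.50) and Gm20815 (0.52), where the median of all windows was 1.14. The window of Gm20918 was log2 2.31 above Cg and 2.42 above 1Rb in H3.3, and 2.90 above 1Rb_M and 2.57 above 1Rb_P in γH2AX. In the 3 inputs pooled, these 5 windows had 0.453 to 0.530 of the median autosomal window. The other 3 block windows lay at 0.27, 0.25 and 0.51 by the same measure, nearer than some of the Y windows, and all these points share the same 18 libraries.

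The genes whose products work with Cwc22 in splicing and in the exon junction complex were examined as a list of 30, which lay in 49 windows. In H3.3, edgeR called 0 of the 49 windows for 3Rb against 1Rb, where it called 6.1% of all windows in either direction. DESeq2 called 0, where it called 1.8% of all windows higher and 3.87% lower. The unadjusted edgeR p was under 0.05 in 6. For 1Rb against Cg edgeR and DESeq2 called 0 as well. Over all windows edgeR called 3.71% in either direction there, and DESeq2 0.922% higher and 1.75% lower. The unadjusted edgeR p was under 0.05 in 2 of the 49. The share of all windows with such a p is not given here, so nothing is read from the 6 and the 2. For 3Rb against Cg 1 was lower, where 6.16% of all windows were, in Cwc27, a splicing-associated cyclophilin (log2 -0.16, SE 0.053, edgeR adjusted p = 0.0445). That call was lost with DESeq2 (adjusted p = 0.0633), with total-count scaling (0.0671) and with a replicate block (0.103). The medians of the list were -0.066 against 1Rb and -0.046 against Cg, beside 0.0028 and 0.0027 over all windows.

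In γH2AX, 10 of the 49 windows were higher and 11 lower in 3Rb than in 1Rb_M, where 17.9% and 20.2% of all windows were. DESeq2 called 6 higher and 7 lower, where it called 13.6% and 14.6% of all windows. With total-count scaling the split was 3 higher and 19 lower, where 8.46% and 30.5% of all windows were called. Against 1Rb_P 5 were higher and 11 lower, where 10.1% and 12.8% of all windows were. DESeq2 called 2 higher and 5 lower, where it called 5.96% and 7.29% of all windows. Total-count scaling gave 3 higher and 14 lower, where 7.03% and 11.7% of all windows were called. The list medians were -0.015 and -0.052, beside 0.014 and 0.0026 over all windows.

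Single members of the list differed in both directions, by far less than the Cwc22 windows. The window of Eif4a3, the helicase that Cwc22 binds, was lower in γH2AX by log2 -0.53 against 1Rb_M (SE 0.073, edgeR adjusted p = 1.4e-06) and -0.40 against 1Rb_P (SE 0.075, adjusted p = 0.00016). The window of Upf1, the helicase of nonsense-mediated decay, was at -0.35 and -0.32 (edgeR adjusted p = 0.00012 and 0.0006). Cwc15, a splicing factor, was higher by 0.36 and 0.48, and a window of Cwc27 was higher by 0.36 against 1Rb_M. Cwc25, also a splicing factor, was lower by -0.32 against 1Rb_P. These calls held with DESeq2 and with total-count scaling.

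Depth bears on how finely the segment could be read. Total counts were 41278440 to 128348440 in the H3.3 libraries, 21535147 to 56385465 in the γH2AX libraries and 11876426 to 51651953 in the inputs. Counting error at the median autosomal window was 2.28% to 6.93% of its count, largest in the B6 input. As a check of the label testis, the X chromosome took 12.3% to 20.6% of γH2AX counts against 3.16% to 3.17% of input counts, the pattern of the sex body of spermatocytes. Total counts and X shares of the 6 3Rb libraries overlapped those of the other libraries of the same mark. Their Y share in H3.3 was lower, at 2.22% to 2.47% against 2.89% to 3.41% in Cg and 1Rb. In γH2AX their Y share was 6.94% to 7.44%. That was below 1Rb_P (8.29% to 8.96%) and B6 (11.0%) and within the range of 1Rb_M (6.11% to 8.97%). The part of the Y share in the values above was not tested.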

How the data were processed

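The deposited files hold raw counts of reads per 50 kb window of mm10, 1 file per library. The tools named per the submitters' processing notes are BWA and CASAVA 1.8. The treatment of duplicates and of reads with several matches is not given in the sources used here, and it bears on any repeated segment. From the counts, edgeR 4.0.16 (R 4.3.3) fitted the 9 replicated libraries of each mark with TMM scaling, keeping windows whose mean count reached 10. Adjusted p-values (Benjamini-Hochberg over all windows) under 0.05 were called. B6 and inputs were scaled to their totals. In data simulated for H3.3 1Rb against Cg (53117 windows), 94% of 1.25-fold changes and 100% of 2-fold changes were recovered. For γH2AX 3Rb against 1Rb_M (53118 windows) 72% and 100% were. The simulation took its spread from the fit and changed 50 windows per fold. It held no difference between libraries of a group such as that in X share. The real γH2AX libraries differed in far more windows, so these rates hold for the simulated setting only. DESeq2 1.42.0, with a mean dispersion fit, was an alternative. Exact tests used scipy 1.17.1.

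Every window of the segment and its protein-coding genes were named, with the 5 windows most like the start-site window, up to 4 called windows of the partner list per comparison, and any other window of chromosome 2 at least 2-fold up in H3.3. The members and lists were chosen with earlier results of these data known. No 2 libraries of a group had the same counts within sampling noise (chi-square per degree of freedom 1.38 to 34.6 over 18 pairs).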

Additional observations from a re-analysis of the deposited data

How the results depend on the processing

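The rise of the 4 block windows in 3Rb kept its direction in 224 of 224 values of both marks over the alternatives run (DESeq2, total-count scaling, no count filter, replicate block, only the groups compared, and leaving out each library). In γH2AX it also kept its call. The H3.3 values among them are a description, since H3.3 chose the gene and set the block. The log2 values of both marks lay between 1.15 and 2.61. Those of γH2AX, the only mark tested here, lay between 1.41 and 2.61, with a largest adjusted p of 1.6e-06 by edgeR or DESeq2. What moved was outside the block. Windows called against 1Rb_M were 10, but 6 with DESeq2, 4 with total-count scaling and 6 to 11 without single libraries (6 without the first 1Rb_M, the second 3Rb or the third 3Rb library). Over all windows edgeR called 17.9% higher and 20.2% lower against 1Rb_M. DESeq2 called 13.6% and 14.6%, and total-count scaling gave 8.46% and 30.5%. Calls of 1Rb_M against 1Rb_P ranged from 0 to 3. Shares over all windows are not given for the fits without single libraries.

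For the partner list, calls against 1Rb_M and 1Rb_P fell from 21 and 16 to 13 and 7 with DESeq2. The H3.3 call against Cg went from 1 to 0 with DESeq2, total-count scaling and the replicate block. Replicate numbers did not pair the libraries (correlations of same-numbered deviations from -0.56 to 0.14 in H3.3 and -0.33 to 0.32 in γH2AX). With the number as a replicate block, 7 windows of the segment were called against 1Rb_M and 4 against 1Rb_P. That fit called 17% of all windows higher and 18.9% lower against 1Rb_M, and 9.11% and 11.7% against 1Rb_P.

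Values near 0 changed sign. With total-count scaling γH2AX of 1Rb_M against 1Rb_P became 0.060, 0.013, 0.049, 0.044 and 0.063 in 5 windows (starts 77850001, 77900001, 78000001, 77800001 and 78050001), and 3Rb against 1Rb_M became -0.025 at 77800001. Without single libraries, H3.3 of 1Rb against Cg ranged from -0.047 to 0.047 at 77850001 and from -0.024 to 0.042 at 78000001, and γH2AX of 3Rb against 1Rb_P fell to -0.0058 at 77800001. The cause was not tested. The Cwc22 sum in γH2AX ranged from log2 2.23 to 2.35 and the sum of the other windows from 0.37 to 0.40 without single libraries. Without a 3Rb library the exact p was 0.0714, the smallest that 2 against 6 allows, and no call was possible. With 50 kb windows and no 3Rb input counted, the ends of the block and its DNA copy number in 3Rb were not measured.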
